A study of Mus musculus with 4 samples.

Results

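The genes described here encode the ligands and receptors of the classical axon guidance families. They were taken by symbol from the deposited gene table: ephrins, Eph receptors, semaphorins of classes 3 to 7, plexins and neuropilins, Slits and Robos, and netrins with their receptors. The rule found 72 genes among the 27095 in the table, of which 37 encode ligands and 35 receptors. There were 8 ephrins, 14 Eph receptors, 20 semaphorins, 11 plexins and neuropilins, 7 Slits and Robos, and 12 netrins and netrin receptors. The mark measured was H3K27me3, the repressive histone modification laid down by the Polycomb complex PRC2, of which Suz12 is an obligate subunit. It was profiled by Cut&Tag, in which an antibody directs a transposase to cut and tag the marked chromatin, in alveolar macrophages sorted from mouse lung. The 4 libraries came from bone marrow chimeras on a C57BL/6 background, 2 labelled wild type (WT) and 2 labelled Suz12 cKO. In both groups the hosts were lethally irradiated Ly5.1 mice. Donor marrow of the Ly5.2 type, which carried the genotype of the group, made up 90% of the graft, and unmodified Ly5.1 marrow made up the other 10%. The sources used here do not give the Cre driver, the age of the mice or whether the sort removed Ly5.1 cells. In a bulk library a weaker mark per cell and a smaller share of marked cells cannot be told apart.

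Guidance cues steer growing axons by attracting or repelling the growth cone, and the same ligand and receptor pairs shape blood vessels, epithelia and immune cells. Ephrins are bound to the cell surface and signal to Eph receptor tyrosine kinases on the neighbouring cell, and also backwards into their own cell. Semaphorins act through plexins, with neuropilins as co-receptors for most secreted forms, Slits act through Robo receptors, and netrins act through Dcc, neogenin and the Unc5 receptors. Many of these genes are switched on only in restricted embryonic tissues, and genes of that kind are common Polycomb targets. In macrophages, netrin and semaphorin signalling is known for its part in cell migration and retention.

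The libraries held 2592297 and 2142175 counts over gene windows in WT and 3331138 and 3567282 in cKO. The chi-square of the counts divided by its degrees of freedom was 1.98 for the WT pair and 1.83 for the cKO pair, so each pair differed beyond counting noise. The labels call the libraries biological replicates. The Suz12 window held 8 and 10 counts in WT and 11 and 10 in cKO. These counts measure H3K27me3 over the whole gene and do not check the deletion. Alveolar macrophage marker genes stood low, with a median at percentile 20.7 of WT level over the 7 of 10 that were tested. None of the 7 was called between genotypes by edgeR, but their median log2 fold change was 0.67. At 5 of the 7 both cKO libraries stood above both WT libraries and at 1 below, against 23.8% of all tested genes each way. The pan-myeloid markers also stood low, at percentile 21.8 over 4 of 6 tested. None of those 4 was called, and they went the other way, with a median of −0.57 and 3 of 4 values negative. What this has to do with the guidance genes was not tested. The medians of the marker lists of other lineages lay between percentiles 53.8 for T and NK cells and 89.9 for fibroblasts and muscle.

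More guidance genes stood above the median H3K27me3 level of all tested genes than below it in WT macrophages, and their levels spanned a wide range. Levels are given as CPM per kb, counts normalised to the size of each library (CPM, with TMM scaling) and divided by the length of the counted window, which is the gene with about 3 kb on each side. Reads where windows overlap were mostly not counted, but the full length was the divisor. Levels at overlapped windows therefore tend to come out low. Of the 72 genes, 71 passed the filter on low counts. Their median was 1.26 ± 0.0178 CPM per kb in WT and 1.38 ± 0.0937 in cKO (SD, n = 2 libraries each). All 16752 tested genes had medians of 0.665 ± 0.0197 and 0.684 ± 0.0240. In WT, 44 of the 71 stood above the median of all tested genes and 15 in the top 10%. The 72 genes together took 1.22% and 1.2% of the counts in the WT libraries and 1.23% and 1.25% in the cKO libraries. The gene that was not tested, Epha1, held 6 and 8 counts in WT and 6 and 1 in cKO, and other windows overlap 78.6% of its window.

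**Figure D1:**
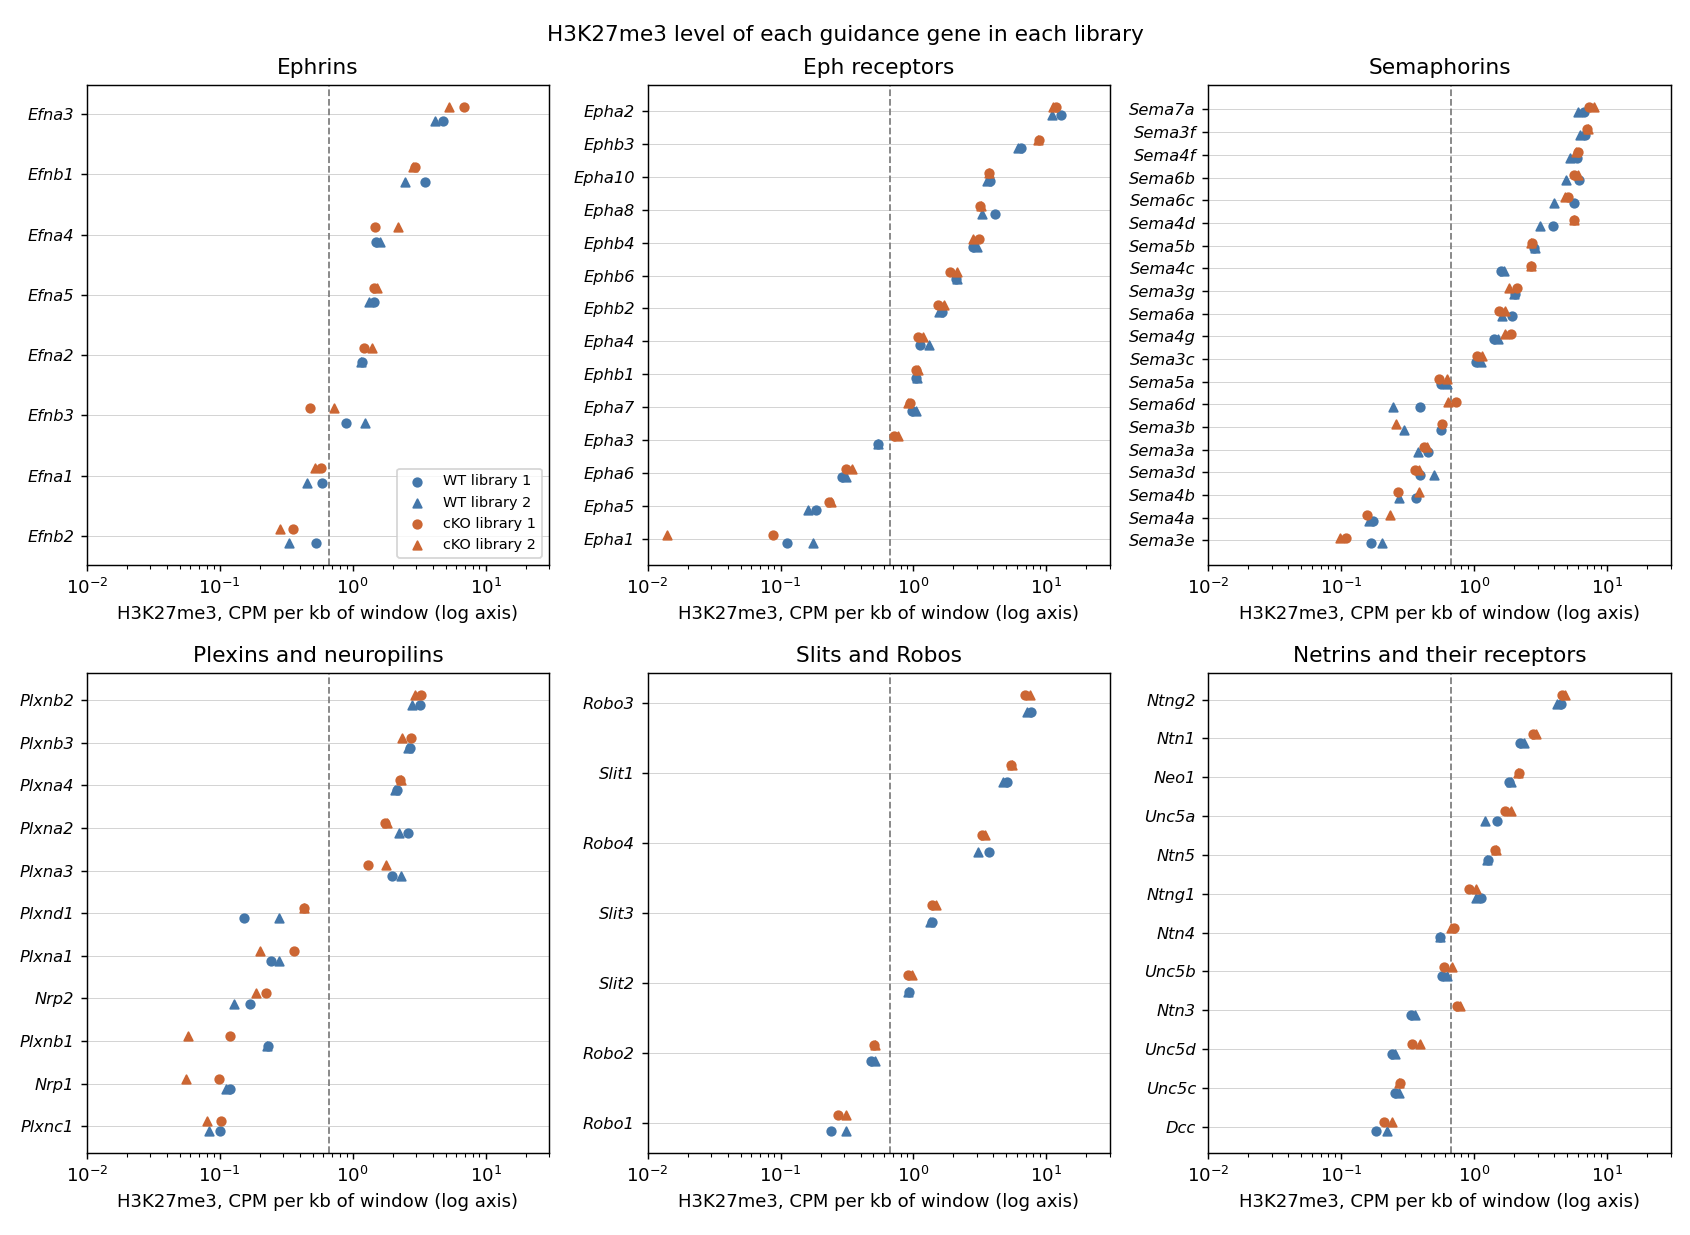
H3K27me3 level of each of the 72 guidance genes in each library, by family, as CPM per kb of window on a log axis. Blue points are the 2 WT libraries, orange points the 2 cKO libraries, and the dashed line is the WT median of all tested genes (0.665). Epha2 stands highest, and Plxnc1, Nrp1 and Epha1 are among the lowest, though other windows overlap 78.6% of the Epha1 window.

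The families, whose levels were not tested against each other, are given here by their WT medians. That of the Eph receptors was 1.60 ± 0.0731 CPM per kb, that of the semaphorins 1.53 ± 0.0520, Slits and Robos 1.35 ± 0.0210, ephrins 1.30 ± 0.0195, and netrins with their receptors 0.835 ± 0.0160. Plexins and neuropilins had the lowest median, 0.262 ± 0.0251, and none of their 11 genes was in the top 10% of tested genes. That family was split: plexins A2, A3, A4, B2 and B3 stood between 2.12 and 3.03 CPM per kb in WT, and the other 6 genes stood between 0.0913 and 0.262. Plxnc1, the receptor of Sema7a, had 0.0995 and 0.0831 CPM per kb in the WT libraries and 0.102 and 0.0805 in the cKO libraries. Nrp1, a semaphorin and VEGF co-receptor, had 0.120 and 0.111 in WT and 0.0983 and 0.0556 in cKO. Both genes thus lay below nearly all tested genes in WT, at percentiles 4.41 and 9.65.

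The highest level was at Epha2, an Eph receptor of epithelial cells (chromosome 4, gene at 141301221 to 141329384 in mm10). It had 12.8 and 11.0 CPM per kb in WT and 11.8 and 11.3 in cKO, percentile 98.7 in WT, and the genotypes overlapped. Robo3, a Robo receptor of crossing commissural axons, followed at 7.40 ± 0.416 in WT and 7.24 ± 0.386 in cKO. Sema3f, a secreted repellent, had 6.51 ± 0.399 and 7.11 ± 0.0895, and Sema7a, a membrane-anchored semaphorin of immune cells, had 6.37 ± 0.484 and 7.63 ± 0.414. Among class 3 semaphorins the spread was wide, from 0.184 CPM per kb at Sema3e to that of Sema3f, and 3 of 7 stood above the median of all tested genes. Ligand and receptor genes as a whole were close in level, with medians of 1.35 ± 0.0323 and 1.11 ± 0.0317 CPM per kb in WT.

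Polycomb targets in mammals are often genes with CpG-rich promoters, so the promoters of the guidance genes were examined for CpG dinucleotides. RefSeq promoter stretches of GRCm38.p6, 250 bases before to 50 after a start, were found for 62 of the 72 genes, and the stretch with the most CpGs was used where a gene had several. The 61 tested genes among them had a median of 23 CpGs per 300 bp, against 14 for the 12259 tested genes with an entry. An observed to expected CpG ratio of at least 0.6 was found at 40 of 61 (65.6%), against 48.5% of those tested genes. Spearman's rank correlation between CpG count and WT level was −0.0957 across the 61 guidance genes and −0.252 across the 12259 genes. Genes are not independent replicates, and all points come from the same 2 libraries. The deposited windows of Sema6d, Robo1, Robo2 and Sema3a are 10.9%, 37.9%, 33.6% and 43.9% of the reference length. Whether the promoter stretches of these genes lie in the counted part is not known. The 33 genes with 23 or more CpGs had a WT median of 1.35 CPM per kb, and the 28 with fewer had 1.24. No entry was used for Efnb3, Sema3b, Sema3f, Sema6a, Plxna1, Plxna4, Slit1, Ntn1, Unc5d and Dcc.

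Stretches of 200 bases just outside the annotated gene, on the gene's own strand, are given for a few genes. These genes were chosen after their values were seen and are examples, not a trend over the 61 genes. CpG dinucleotides are in capitals. Epha2, with the highest level, has few CpGs, Epha8 and Nrp2 are CpG-rich but stand at percentiles 91.1 and 16.6 of WT level, and Plxna2 and Sema3e are the genes that lost the mark in cKO.
Epha2 (chr4:141301021-141301220, plus strand, 8 CpGs): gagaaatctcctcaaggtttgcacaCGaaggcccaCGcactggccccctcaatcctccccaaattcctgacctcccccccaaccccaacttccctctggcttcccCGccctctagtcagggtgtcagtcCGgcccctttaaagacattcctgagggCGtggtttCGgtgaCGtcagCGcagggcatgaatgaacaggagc
Epha8 (chr4:136956860-136957059, minus strand, 37 CpGs): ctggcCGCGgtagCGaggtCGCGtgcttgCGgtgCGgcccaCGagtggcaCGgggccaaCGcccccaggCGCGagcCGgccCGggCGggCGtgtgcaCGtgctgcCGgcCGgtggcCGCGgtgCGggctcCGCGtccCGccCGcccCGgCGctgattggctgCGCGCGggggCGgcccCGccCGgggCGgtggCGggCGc
Nrp2 (chr1:62703117-62703316, plus strand, 27 CpGs): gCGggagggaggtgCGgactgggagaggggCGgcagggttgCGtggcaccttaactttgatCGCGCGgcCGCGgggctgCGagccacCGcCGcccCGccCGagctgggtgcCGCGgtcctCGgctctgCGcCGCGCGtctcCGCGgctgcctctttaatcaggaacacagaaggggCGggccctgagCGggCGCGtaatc
Plxna2 (chr1:194619591-194619790, plus strand, 13 CpGs): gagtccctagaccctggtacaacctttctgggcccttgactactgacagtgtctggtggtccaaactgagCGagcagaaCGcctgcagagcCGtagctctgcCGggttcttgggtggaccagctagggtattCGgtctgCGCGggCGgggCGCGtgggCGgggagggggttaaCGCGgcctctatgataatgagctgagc
Sema3e (chr5:14025076-14025275, plus strand, 7 CpGs): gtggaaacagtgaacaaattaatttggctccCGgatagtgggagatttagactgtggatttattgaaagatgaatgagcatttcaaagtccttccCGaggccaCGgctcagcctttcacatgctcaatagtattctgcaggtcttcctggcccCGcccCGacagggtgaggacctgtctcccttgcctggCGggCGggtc
The counts are over whole gene windows, so they do not show where within a window the mark lies.

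**Figure D2:**
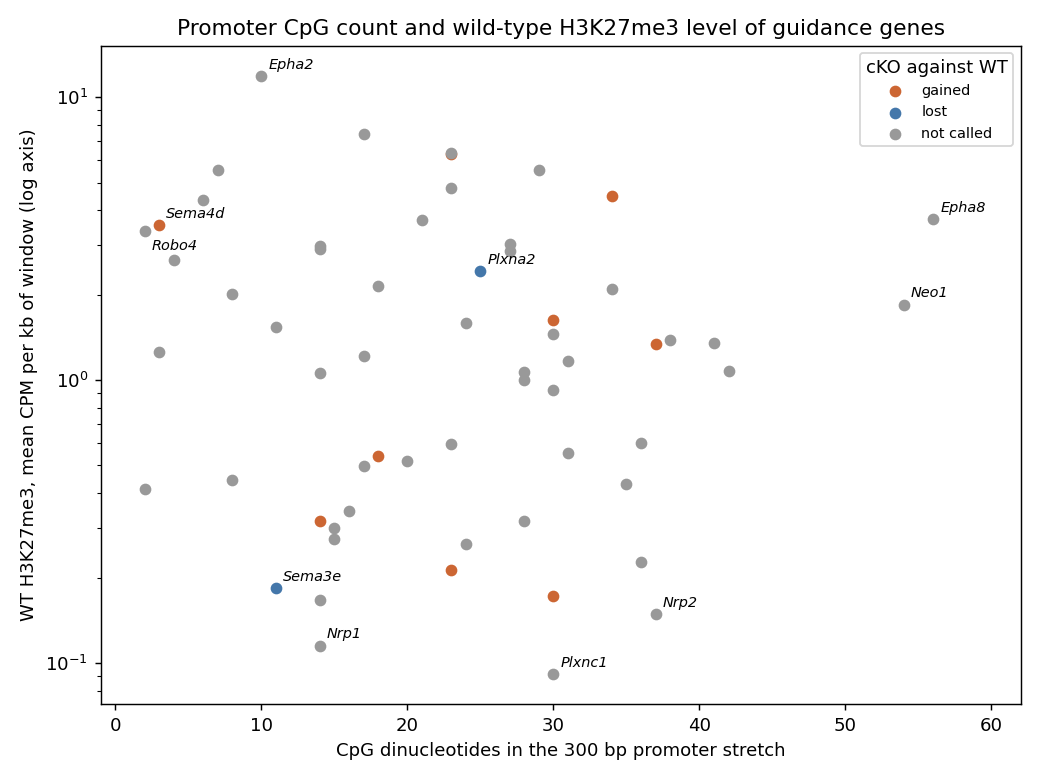
CpG dinucleotides in the 300 bp promoter stretch against the mean WT H3K27me3 level in CPM per kb (log axis) for the 61 tested guidance genes with a promoter entry. Orange, blue and grey mark genes that gained, lost or were not called in cKO. The points form no trend (rank correlation −0.0957), and Epha2 with 10 CpGs stands above Epha8 with 56. Only part of the gene was counted for Sema6d, Robo1, Robo2 and Sema3a.

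The genotypes were then compared, to ask how the mark at these genes differed between the libraries labelled WT and Suz12 cKO. As shares of each library, more guidance genes gained H3K27me3 in cKO than lost it, led by Sema4d, Sema6d and Unc5d. The losses were at Sema3e and Plxna2. A uniform gain or loss of signal would stay hidden in such shares. Of 71 tested, 11 gained (15.5%) and 2 lost (2.82%) at an adjusted p below 0.05 by edgeR's quasi-likelihood test, against 4.46% and 1.96% of all 16752 tested genes, or 6.42% called in either direction. The median log2 fold change was 0.06 for the guidance genes and −0.01 for all tested genes. Values were positive at 46 of 71 guidance genes, against 8097 of all 16752. The split at the guidance genes turned on the scaling, since 36 were positive with library totals and 31 with upper-quartile factors. At an unadjusted p below 0.05, 21 guidance genes (29.6%) passed, against 18.5% of all tested genes. The genotypes did not overlap at 35 guidance genes (49.3%), against 47.6% of all tested genes. Both cKO libraries stood above both WT libraries at 25 (35.2%) and below them at 10 (14.1%), against 23.8% each way. Guidance windows are long and well covered, with a median of 289 counts against 43 for all tested genes, and well-covered genes are called more easily. Among genes with a mean of at least 50 counts, 12 of 60 guidance genes (20.0%) were called, against 10.7% of 7808 genes. Of these, 10 gained (16.7%, against 8.27%) and 2 lost (3.33%, against 2.45%).

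These counts depended on the scaling and on single libraries. With scaling to housekeeping genes, which moved the median of all genes to 0.31, 5 guidance genes gained and 0 lost. Over all genes 523 gained and 19 lost. That scaling rests on few counts. The 59 housekeeping genes held 0.0149% to 0.0222% of the counts of each library. The 18 of them that were tested had a median of 13.6 counts. With TMM their median log2 fold change was −0.62, with 14 values negative, 4 positive and 0 called. At 8 of the 18 both cKO libraries stood below both WT libraries, against 23.8% of all tested genes. What this has to do with guidance genes of low level was not tested. The standard error at Plxna2 was 0.29 under it, against 0.09 with TMM. The median of the guidance genes was 0.071 to 0.077 above that of all genes under every scaling run. A scaling shifts all genes by nearly the same amount, so it could hardly move this gap. The gap was 0.064 with thinned counts, 0.09 without a count filter and 0.015 among genes with at least 50 counts. Leaving out 1 library gave gaps of 0.056 to 0.144. Without WT library 1 and without WT library 2, 8 guidance genes gained each time. Without cKO library 1, 4 gained, and without cKO library 2, 3 gained. Losses numbered 2, 1, 2 and 1 in the same order. Of the 13 called genes, Sema4d and Sema6d were called under all 13 alternatives, Plxna2 and Unc5d under 12, and Epha3 under 11. Ephb3 was called under 10, Sema3e and Sema4c under 9, Ntn1 under 7, Plxnd1 under 7 of 12, and Efna3, Epha5 and Unc5a under 6.

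**Figure D3:**
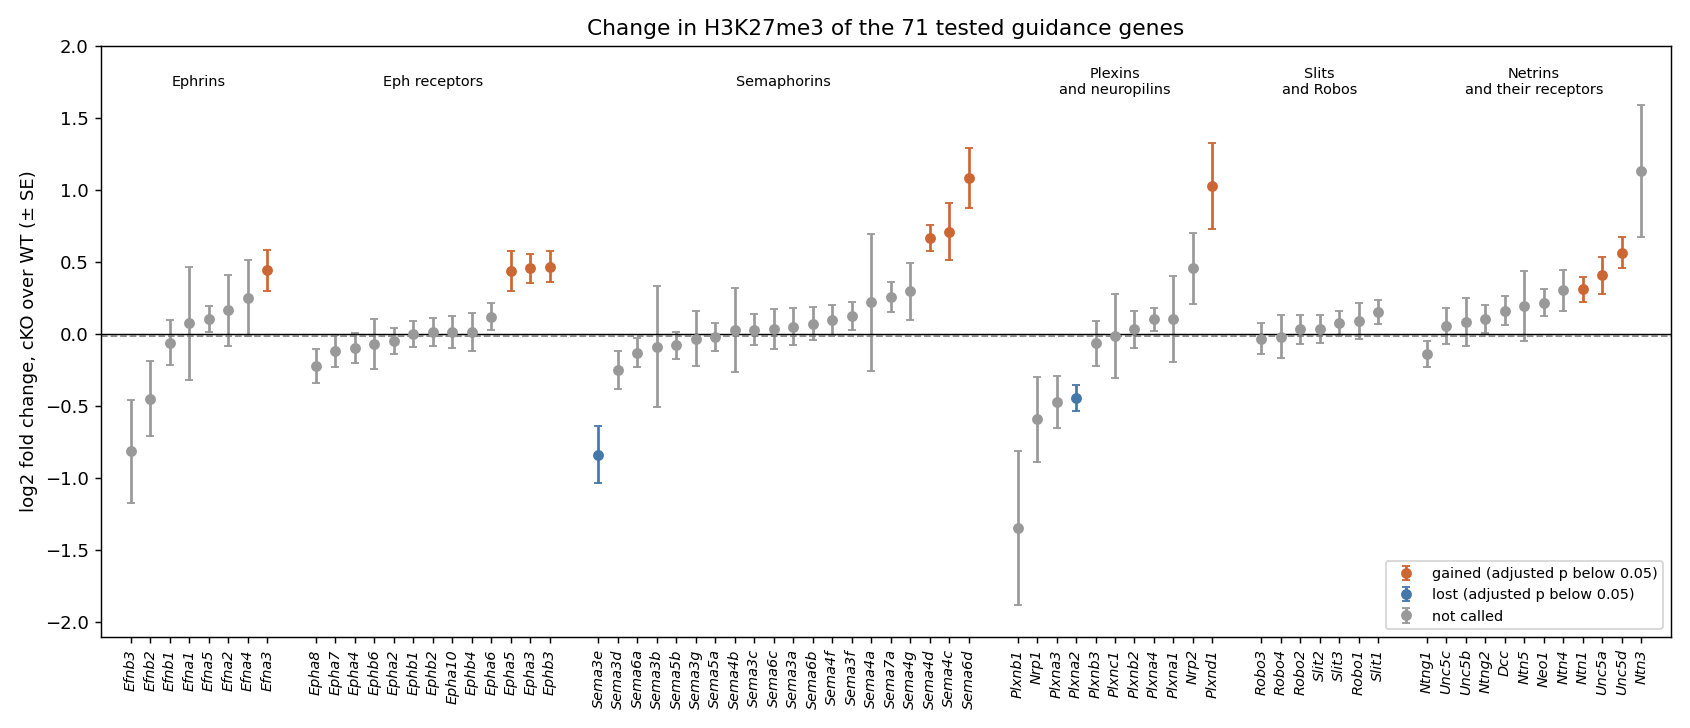
Log2 fold change of cKO over WT with its standard error for the 71 tested guidance genes, ordered within families. Orange points gained and blue points lost at an adjusted p below 0.05, grey points were not called, and the dashed line is the median of all tested genes (−0.01). The 7 Slits and Robos lie close to 0, and the widest bars belong to genes of few counts such as Plxnb1 and Ntn3.

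Of 13 tested Eph receptors, 3 gained H3K27me3 in cKO, 0 lost it and 10 were not called, with a family median of 0.01. Over all tested genes, 4.46% gained and 1.96% lost. Among those with a mean of at least 50 counts, 8.27% gained and 2.45% lost. Ephb3, a receptor that sorts cells along the intestinal crypt (chromosome 16, 21204620 to 21223309), had 159 and 150 CPM in the WT libraries and 217 and 211 in the cKO libraries. Both cKO libraries stood above both WT libraries, and the log2 fold change was 0.47 ± 0.11 (SE, adjusted p = 7.41e-04). Epha3, a receptor of developing neurons on the same chromosome (63543532 to 63864175), had 176 CPM in each WT library and 234 and 248 in the cKO libraries (0.46 ± 0.10, adjusted p = 7.05e-04). Epha5, a neuronal receptor on chromosome 5 (84054761 to 84417818), had 68.2 and 59.5 CPM in WT and 85.6 and 87.9 in cKO (0.44 ± 0.14, adjusted p = 0.0331). The 3 genes differed in length and level, since Ephb3 has a window of 24.5 kb at 6.31 CPM per kb in WT, and Epha3 and Epha5 have windows of 325 and 369 kb at 0.541 and 0.173. The call at Ephb3 was lost when cKO library 1 (adjusted p = 0.0707) or cKO library 2 (0.0523) was left out, and that at Epha3 without cKO library 2 (0.137). Epha5 was not called without WT library 2 (0.251), cKO library 1 (0.179) or cKO library 2 (0.333).

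The other 10 tested Eph receptors had values from −0.22 at Epha8 to 0.12 at Epha6 on the log2 scale. Ephb4, the venous partner of Efnb2, had 85.7 and 91.6 CPM in WT and 94.2 and 84.7 in cKO, and the genotypes overlapped. At Epha10, a receptor that lacks kinase activity, levels were 3.68 ± 0.127 CPM per kb in WT and 3.72 ± 0.0152 in cKO, in a window overlapped by others over 48.8% of its length.

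Of the 8 ephrins, 1 gained and 0 lost. The shares were 4.46% and 1.96% of all tested genes, and 8.27% and 2.45% of those with a mean of at least 50 counts. Efna3 (chromosome 3, 89313899 to 89322939), a ligand of A-class receptors, had 66.7 and 57.7 CPM in WT and 95.4 and 74.5 in cKO, a log2 fold change of 0.44 ± 0.14 (adjusted p = 0.0340). It was not called without WT library 2 (adjusted p = 0.260), nor without cKO library 1, where the value was 0.26 (0.581), and other windows overlap 63.1% of its window. All 5 A-class ephrins, which are tethered by a lipid anchor, had positive values (0.07 to 0.44), though that of Efna1 was −0.0088 with upper-quartile factors, −0.0814 without WT library 2 and −0.005 without cKO library 1, and that of Efna4 was −0.0687 without cKO library 2. The 3 B-class ephrins, which span the membrane, had negative ones (−0.81 to −0.06), and that of Efnb1 was 0.28 with housekeeping scaling and 0.23 without WT library 1. Of the 8, Efna3 alone passed the test. Efnb2, the arterial ephrin, stood low at 26.0 and 16.5 CPM in WT and 17.4 and 14.0 in cKO, and Efnb1, its X-linked relative, at 56.3 ± 13.6 and 54.5 ± 1.14. Efna1, the ligand that binds Epha2, had 0.519 ± 0.0952 and 0.550 ± 0.0456 CPM per kb. Efna4, on the same chromosome, had 1.54 ± 0.0693 and 1.83 ± 0.517.

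Of the 20 semaphorins, 3 gained and 1 lost, with a family median of 0.04. The shares were 4.46% and 1.96% of all tested genes, and 8.27% and 2.45% of those with a mean of at least 50 counts. The smallest adjusted p of any guidance gene was at Sema4d, also known as CD100, a membrane semaphorin of lymphocytes and myeloid cells (chromosome 13, 51685529 to 51793678). It had 389 and 309 CPM in the WT libraries and 552 and 558 in the cKO libraries. Both cKO libraries stood far above both WT libraries, the log2 fold change was 0.67 ± 0.09 (adjusted p = 3.55e-10), and the gene was called under every alternative, with values from 0.52 to 1.00. Sema6d, a transmembrane semaphorin that binds plexin A1, rose from 24.8 and 15.6 CPM to 46.5 and 40.3 (1.08 ± 0.21, adjusted p = 2.97e-05). It too was called under every alternative. The deposited Sema6d window is 63.5 kb, against a reference span of 578 kb for the gene (chromosome 2, 124089943 to 124667789), so only part of the gene was counted. The Sema4d window is 86.2% of the length given by the reference.

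Sema4c, a B-class plexin ligand (chromosome 1, 36548639 to 36560699), had 24.8 and 26.6 CPM in WT and 41.9 and 42.1 in cKO (0.71 ± 0.20 on the log2 scale, adjusted p = 0.0108). The genotypes did not overlap, but other windows overlap 47.7% of this window. Sema4c was not called without WT library 1 (adjusted p = 0.0989), cKO library 1 (0.0801) or cKO library 2 (0.117). All 6 class 4 semaphorins had positive values, with a median of 0.26, and 2 of them, Sema4c and Sema4d, passed the test. Sema4b had the lowest of these values, which was −0.028 with library totals and −0.0586 with upper-quartile factors. It was −0.1507 without WT library 2 and −0.2544 without cKO library 2, where Sema4a was at −0.0958 as well and 4 of 6 values were positive. Sema4b stood at 14.5 ± 3.05 and 14.9 ± 3.74 CPM. Sema4a, which costimulates T cells, stood low at 5.43 and 5.04 CPM in WT and 4.89 and 7.30 in cKO, 0.168 CPM per kb in WT. Sema4f, another neuronal member, stood at 5.55 ± 0.472 and 5.95 ± 0.187 CPM per kb.

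Sema3e, a secreted semaphorin that binds plexin D1 directly without a neuropilin (chromosome 5, 14025276 to 14256689), was the semaphorin that lost the mark. It had 39.9 and 47.6 CPM in WT and 25.7 and 23.1 in cKO, and both cKO libraries were below both WT libraries (log2 fold change −0.84 ± 0.20, adjusted p = 0.00134). Its level was low in both genotypes, at 0.184 and 0.103 CPM per kb over a window of 237 kb. The 18 tested housekeeping genes had medians of 0.149 in WT and 0.112 in cKO. Their median log2 fold change was −0.62, with 0 called. Whether the fall at Sema3e differs from theirs was not tested. Sema3e was not called without WT library 2 (adjusted p = 0.0749) or cKO library 2 (0.0827), nor with housekeeping scaling (−0.52, 0.358). Sema3a, the founding repellent of the family, had 87.6 ± 10.5 and 91.1 ± 2.96 CPM. Its deposited window covers 43.9% of the reference length. Sema7a had 193 and 173 CPM in WT and 211 and 228 in cKO, without overlap, but did not pass the test (0.26 ± 0.10, adjusted p = 0.127).

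Among the 11 plexins and neuropilins, 1 gained and 1 lost. The shares were 4.46% and 1.96% of all tested genes, and 8.27% and 2.45% of those with a mean of at least 50 counts. Plxna2, the receptor for class 6 semaphorins (chromosome 1, 194619791 to 194816869), fell from 530 and 456 CPM in WT to 357 and 369 in cKO (log2 fold change −0.44 ± 0.09, adjusted p = 1.01e-04). The genotypes did not overlap, and the call held without each library in turn. With housekeeping scaling the value was −0.11 (adjusted p = 0.856). Plxnd1, the endothelial receptor of Sema3e (chromosome 6, 115954811 to 115995339), went the other way, from 6.98 and 12.8 CPM to 19.9 in each cKO library (1.03 ± 0.30, adjusted p = 0.0162). These are few reads, 18 and 28 counts in WT and 65 and 68 in cKO. Without WT library 1 the value was 0.64 (adjusted p = 0.363), and Plxnd1 was not called without cKO library 1 (0.0681) or cKO library 2 (0.0956) either. Even in cKO its level of 0.430 CPM per kb lay below the median of all tested genes, 0.684.

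**Figure D4:**
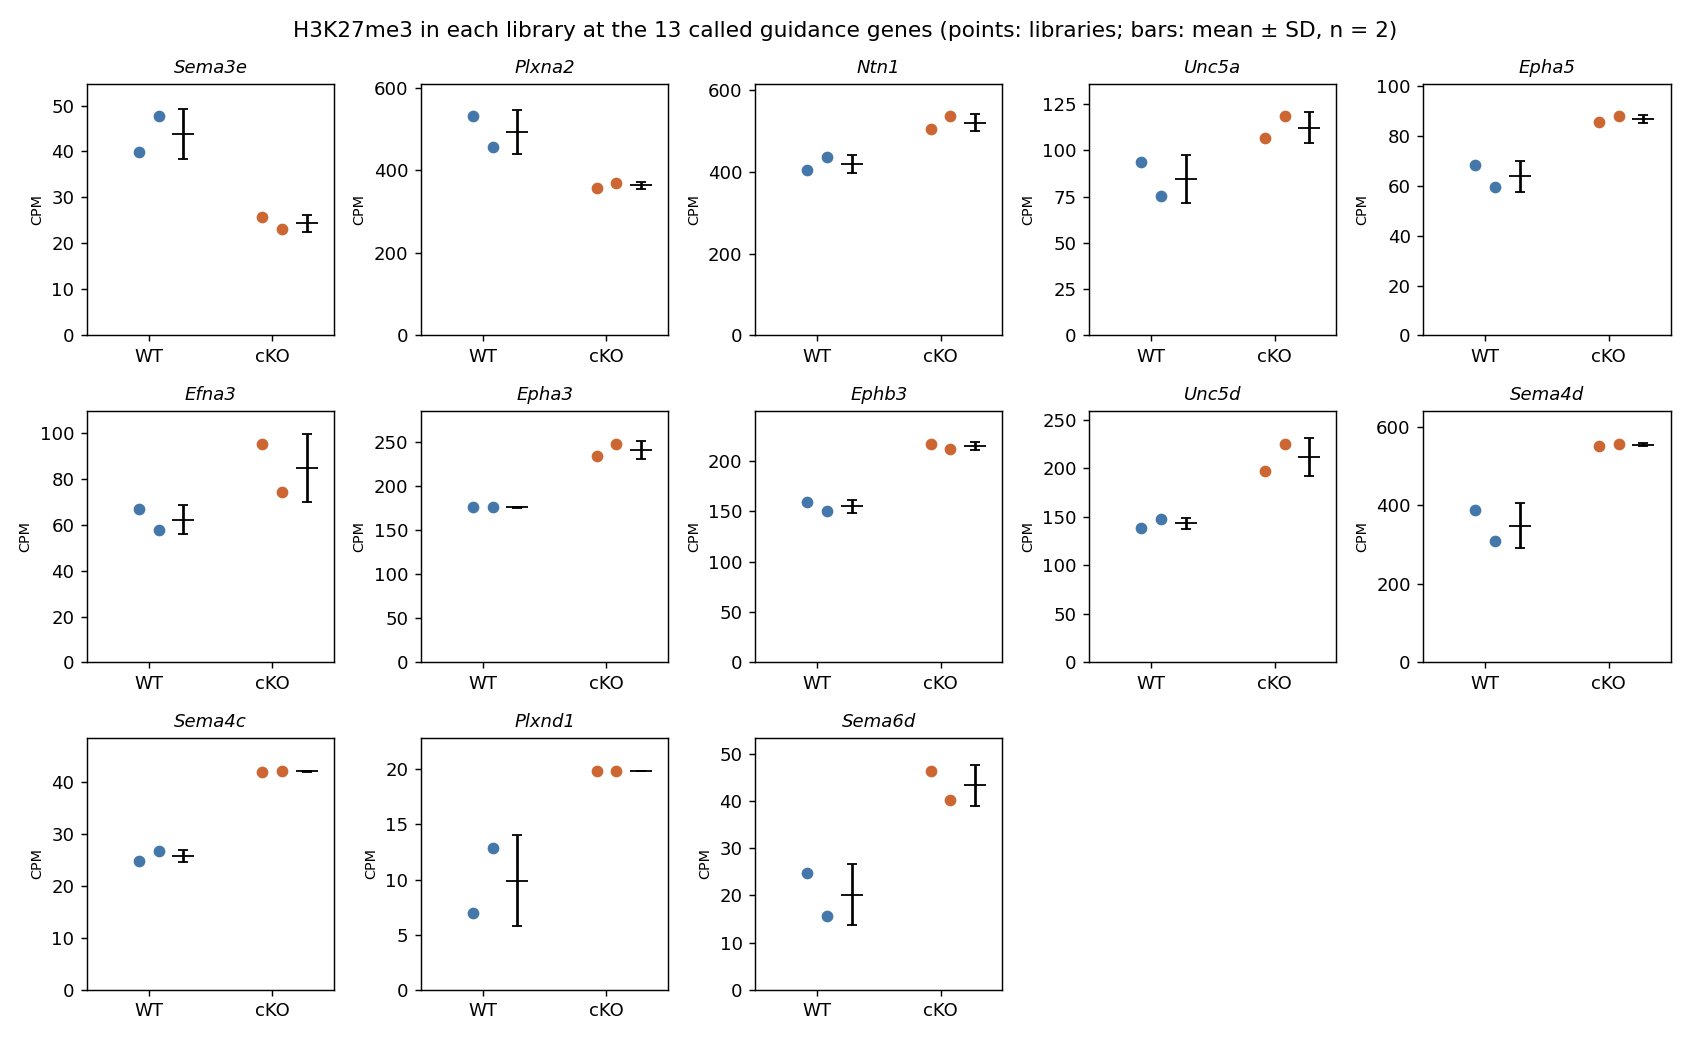
CPM in each library at the 13 guidance genes called between genotypes, ordered from the lowest to the highest log2 fold change. Each panel starts at 0, points are libraries and bars are the mean ± SD (n = 2). WT and cKO do not overlap in any panel, but the genes were picked by the test on these same libraries. Over all tested genes, 47.6% do not overlap. Plxnd1 and Sema6d have the widest relative spread between WT libraries.

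The remaining plexins and neuropilins were not called. Plxnb2, the B-class plexin found in macrophages, had 94.6 ± 9.40 CPM in WT and 97.1 ± 6.74 in cKO, and Plxnb3 had 56.9 ± 0.759 and 54.5 ± 6.41. At Plxna4, a neuropilin partner with the largest number of counts of all guidance genes, the values were 955 ± 21.4 and 1024 ± 15.2 CPM (0.10 ± 0.08 on the log2 scale, adjusted p = 0.548). Nrp1 and Nrp2 differed in sign. Nrp1 had 18.2 and 16.9 CPM in WT and 15.0 and 8.47 in cKO (−0.59 ± 0.30, adjusted p = 0.260), and Nrp2 had 20.6 and 15.6 in WT and 27.2 and 22.8 in cKO (0.46 ± 0.24, adjusted p = 0.304). Neither pair of genotypes overlapped, as at 47.6% of all tested genes. Whether the 2 neuropilins differ in their change was not tested.

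None of the 7 Slits and Robos was called by edgeR or by DESeq2. Slits are large secreted proteins that repel axons from the midline, and Robos are their receptors. Their log2 fold changes lay between −0.03 and 0.15, or 0.30 and 0.49 with housekeeping scaling. The family was well covered, with a median of 755 counts. At an unadjusted p below 0.05, 0 of 7 passed by either tool, against 18.5% of all tested genes by edgeR. Slit1 (chromosome 19, 41597824 to 41747275) had 763 and 710 CPM in WT and 810 and 828 in cKO (0.15 ± 0.08, adjusted p = 0.313). Robo4, the Robo of endothelial cells, had 66.7 and 55.0 in WT and 59.0 and 61.6 in cKO, and the genotypes overlapped. Robo1 and Robo2, the main axonal Robos, were low at 0.275 ± 0.0513 and 0.497 ± 0.0266 CPM per kb in WT and 0.291 ± 0.0253 and 0.508 ± 0.00649 in cKO. Their deposited windows are 37.9% and 33.6% of the reference length.

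Of the 12 netrins and netrin receptors, 3 gained and 0 lost. Over all tested genes 4.46% gained and 1.96% lost, or 8.27% and 2.45% of those with a mean of at least 50 counts. In this family 11 values were positive, against 8097 of all 16752 tested genes, and the median was 0.21. With upper-quartile factors 9 were positive. Ntn1, the founding netrin and a chemoattractant (chromosome 11, 68209364 to 68386826), had 405 and 436 CPM in WT and 505 and 536 in cKO, a log2 difference of 0.31 ± 0.09 (adjusted p = 0.0141). Unc5d, a repulsive netrin receptor (chromosome 8, 28646717 to 29219671), had 139 and 147 CPM in WT and 198 and 225 in cKO (0.56 ± 0.11, adjusted p = 2.49e-05). Unc5a, its neuronal relative (chromosome 13, 54945151 to 55006018), had 93.5 and 75.1 in WT and 106 and 118 in cKO (0.41 ± 0.13, adjusted p = 0.0283). In all 3 genes both cKO libraries stood above both WT libraries, as at 23.8% of all tested genes. The 3 genes were picked by the test on these same libraries, so this adds nothing to their calls. Ntn1 was not called without WT library 1 (adjusted p = 0.0786), cKO library 1 (0.0937) or cKO library 2 (0.377), and Unc5a was not without WT library 2 (0.361), cKO library 1 (0.0996) or cKO library 2 (0.488). Unc5d was not called without cKO library 2 (0.0865).

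The other netrin receptors did not pass the test. Unc5b, the Unc5 receptor known from macrophages and vessels, had 44.9 ± 2.59 CPM in WT and 47.4 ± 4.80 in cKO. Unc5c had 98.8 ± 4.75 and 103 ± 1.01. Dcc, the attractive netrin receptor, stood low for its window of 1103 kb, at 0.202 ± 0.0269 and 0.226 ± 0.0231 CPM per kb. Neo1, which encodes neogenin and binds netrins and repulsive guidance molecules, had 304 and 317 CPM in WT and 366 and 356 in cKO (0.22 ± 0.09, adjusted p = 0.164). Ntng2, a lipid-anchored netrin, was the highest of the family at 4.35 ± 0.252 and 4.68 ± 0.201 CPM per kb.

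Known ligand and receptor pairs are set side by side here, without a test. Sema3e lost and its receptor Plxnd1 gained, Ntn1 gained with Unc5a and Unc5d but neither Unc5b nor Unc5c was called, and Sema4d gained without a call at Plxnb1 or Plxnb2. Sema7a was high and Plxnc1 low in both genotypes, and Efnb2 was low where Ephb4 was high at 2.91 ± 0.137 CPM per kb in WT.

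Further genes of the pathway were taken from a list of 74 other cues, co-receptors and intracellular effectors. Of 63 that were tested, 8 gained and 2 lost, and 53 were not called. Over all tested genes 4.46% gained and 1.96% lost, or 8.27% and 2.45% of those with a mean of at least 50 counts. The 63 genes too were well covered, with a median of 203.8 counts against 43. Their median log2 fold change was −0.03, and their WT level had a median of 0.476 ± 0.0214 CPM per kb. Srgap3, a GTPase activator downstream of Robo, rose from 90.0 and 98.4 CPM in WT to 198 and 197 in cKO (1.07 ± 0.12, adjusted p = 1.86e-15). Met, the receptor of hepatocyte growth factor and a partner of B-class plexins, rose from 126 and 119 to 212 and 210 (0.78 ± 0.11, adjusted p = 1.58e-09). The adaptor Nck2 gained by 0.73 ± 0.12 and the kinase Fyn by 0.73 ± 0.15. Rnd1, which binds plexins, gained by 0.69 ± 0.13, the actin regulator Enah by 0.40 ± 0.09 and Dpysl5, of the semaphorin-responsive collapsin response mediators, by 0.35 ± 0.10. Rnd3 was called at 5 and 2 counts in WT and 18 and 22 in cKO. The losses were at Chl1 and Arhgef11. Chl1, a cell adhesion molecule that binds Nrp1, changed by −0.36 ± 0.10 (adjusted p = 0.00674). Arhgef11, which B-class plexins bind, changed by −1.11 ± 0.35 (adjusted p = 0.0321), at 41 and 30 counts in WT and 29 and 17 in cKO. Its WT level was 0.118 CPM per kb, against a median of 0.149 for the 18 tested housekeeping genes, whose median log2 fold change was −0.62.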

How the data were processed

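The deposited data are a single table, made by the authors, that holds whole-number counts for each Entrez gene and window lengths in bp. Counting with featureCounts on mm10 was taken from the labels, per the submitters' processing notes. The sources used here do not give the aligner, the handling of duplicates or the counting options. Gene symbols and positions came from RefSeq's GRCm38.p6 table, in which 25204 IDs (93.02%) were found. Deposited windows were within 5% of the gene span plus 3 kb on each side for 61 of the 72 members. Of 2443 windows lying wholly within others, 67.1% had 0 counts in all libraries, against 1.28% of 10809 that overlap none, so reads in overlaps were mostly not counted. Overlap, from reference positions, was 10% or more for 22 members. Strand plays no part in such windows.

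Groups and replicate numbers came from the sample titles. edgeR 4.0.16 in R 4.3.3 (filterByExpr, TMM, estimateDisp, glmQLFit, glmQLFTest, genotype as the only term) was fitted to all genes, with Benjamini-Hochberg adjustment over the 16752 that passed. Adjusted p-values come from edgeR except where DESeq2 is named. Standard errors are the log2 fold change divided by the square root of F. Because CPM are shares of each library, a uniform gain or loss of signal would stay hidden. On simulated counts for this comparison (16097 genes run), 55.6% of genes changed 2-fold and 85.5% of those changed 3-fold were recovered, and 7 of 151 calls were unchanged genes. The simulated counts covered all tested genes with a common dispersion, and no change below 2-fold was simulated. The guidance genes are better covered, with a median of 289 counts against 43, so these rates may not hold for them. With 2 libraries per genotype at this depth, a gene that was not called may still have changed.

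Members and lists were chosen with earlier results of these data known, so no list is tested as such. Named genes are the called members, the 3 highest and 2 lowest of each family by CPM per kb, 16 members always named, and the called genes of the further list; some others are named as extremes, as ligands or receptors of a named gene or as exceptions, and were chosen after their values were seen. The alternatives were other scalings (DESeq2 size factors, library totals, upper quartile, housekeeping genes), other count filters, DESeq2 1.42.0, thinning to the smallest library, leaving out each library, a replicate block, and leaving out overlapped windows.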

Additional observations from a re-analysis of the deposited data

How the results depend on the processing

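No called member changed sign under any alternative, and of the uncalled members Plxna3 alone became called, among genes with a mean of at least 50 counts. Of 528 values for 41 named members, 429 kept their sign and side of the threshold and 47 lost a call. The other 52, at 17 members, changed sign between values that were not called in either fit. Members gained and lost numbered 7 and 2 with upper-quartile factors, 5 and 0 with housekeeping scaling, and 6 and 1 by DESeq2's Wald test. Their median was 0.0027 with library totals, −0.0266 with upper-quartile factors, 0.3877 with housekeeping scaling and 0.0122 with at least 50 counts. Over all genes, against 747 gained and 329 lost, there were 494 and 519 with upper-quartile factors, 523 and 19 with housekeeping scaling, 597 and 475 with library totals, and 324 and 52 by DESeq2's Wald test. Leaving out 1 library gave 3 to 8 members gained, 1 to 2 lost, a median of 0.0559 to 0.1324, and 350 to 738 genes gained and 76 to 207 lost. In those fits the lone library of a genotype is assumed to vary like the other group. The cause of these differences was not tested.

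The numbers in the titles are not known to pair the libraries: the deviations of same-numbered libraries from their group means had a correlation of 0.00718 over genes. With the number as a replicate block, 11 members gained and 2 lost, and the 13 calls were kept. Among members under 10% overlapped, 9 of 50 gained and 2 lost.

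Among members outside the rule for named genes, sign changes reached 0.4876 at Sema3b without WT library 1 (−0.09 with all libraries), −0.3717 at Plxna1 without cKO library 1 (0.10) and −0.2544 at Sema4b without cKO library 2 (0.03). Over all tested members 37 changed sign under some alternative, with 0 adjusted p below 0.05 among the changed values. With upper-quartile factors Efna1 was at −0.0088, Epha10 at −0.0703, Ephb4 at −0.0696, Plxnb2 at −0.0516, Robo2 at −0.0527, Sema3a at −0.0333, Unc5b at −0.0011 and Unc5c at −0.0266. With library totals Epha10 was at −0.0408, Ephb4 at −0.0403, Plxnb2 at −0.0219, Robo2 at −0.0237 and Sema3a at −0.0033. With at least 50 counts these stood at −0.0386, −0.0381, −0.0198, −0.0214 and −0.0013. With thinned counts Epha10 was at −0.0155, Ephb4 at −0.0229, Plxnb2 at −0.0482 and Robo1 at −0.0128. Housekeeping scaling put Efnb1 at 0.2764, Epha2 at 0.2789, Plxnb3 at 0.2524, Plxnc1 at 0.2987, Robo3 at 0.3034 and Robo4 at 0.3173, and without a count filter Plxnc1 was at 0.0038 and Robo4 at 0.0005. Leaving out 1 library gave −0.0814 to 0.2901 for Efna1, −0.0687 to 0.5164 for Efna4, −0.2636 to 0.2298 for Efnb1, −0.0095 to 0.0577 for Epha10, −0.1451 to 0.0738 for Epha2, −0.0575 to 0.0924 for Ephb4, −0.0515 to 0.1482 for Plxnb2 and −0.1813 to 0.0563 for Plxnb3. It gave −0.183 to 0.1474 for Plxnc1, −0.0887 to 0.2979 for Robo1, −0.0166 to 0.0959 for Robo2, −0.0855 to 0.0339 for Robo3, −0.1346 to 0.1414 for Robo4, −0.0506 to 0.1915 for Sema3a, −0.0958 to 0.4802 for Sema4a and −0.0214 to 0.1884 for Unc5b.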

Other observations

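Besides the 13 called genes, 8 of the guidance genes had an unadjusted p below 0.05 without passing the adjusted threshold, so that 29.6% of them did against 18.5% of all tested genes. These 8 were chosen after their values were seen. Ntn3, a short netrin gene, had 10 and 9 counts in WT and 28 and 31 in cKO (log2 fold change 1.13 ± 0.46, adjusted p = 0.129), in a window that others overlap over 69.8%. Plxnb1, a Sema4d receptor, had 18 and 15 counts in WT and 12 and 6 in cKO (−1.35 ± 0.54, adjusted p = 0.122). Efnb3 had 28 and 33 counts in WT and 19 and 30 in cKO, the latter from deeper libraries (−0.81 ± 0.36, adjusted p = 0.180). Plxna3, an X-linked plexin, had 43.0 and 49.9 CPM in WT and 28.4 and 38.3 in cKO (−0.47 ± 0.18, adjusted p = 0.107), and it was called among genes with a mean of at least 50 counts. Ntn4, a basement membrane netrin, had 61.5 ± 0.384 and 75.9 ± 2.46 CPM (0.30 ± 0.14, adjusted p = 0.223). Neo1, Nrp1 and Sema7a complete the set.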
